A study of Mus musculus with 4 samples.

Results

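Cell division genes are 40 genes of DNA replication and mitosis, chosen by name, of the 32285 genes counted in single cells of mouse lung. All 40 symbols were found in each of the 4 libraries. Of them, 17 act in S phase, when DNA is copied, 21 act in mitosis or in the preparation for it, and Stmn1 and Hmgb2 act in both and were counted in neither sum. Their levels were compared between cell types of the lung, and between lungs of Galt gene-edited mice (GAL) and of wild-type mice (WT).

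GAL and WT had 2 libraries each, and each library was a cell suspension of lung digested with collagenase and DNase, captured in droplets with barcoded beads. The product of Galt is the uridylyltransferase that turns galactose-1-phosphate into UDP-galactose. What was edited in the gene, the strain, age and sex of the mice, and how many mice went into a library are not stated in the labels. P-values therefore measure the spread between these samples, which may be technical. Galt itself had 721 and 525 unique molecular identifiers (UMIs, 1 per captured RNA molecule) in the GAL libraries, against 583 and 544 in the WT libraries. Where the edit lies in the gene is not stated, so these counts do not check the label.

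Filters left 10967 and 10757 cells in the GAL libraries and 12441 and 13515 in the WT libraries, at median depths of 3713 and 2842 UMIs in GAL and 2361 in both WT libraries. Pairs of libraries shared between 107 and 149 barcodes. Gates of alveolar macrophages, alveolar type 2 cells and ciliated cells, all known from the lung, were present in all 4 libraries.

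A dividing cell first loads the MCM helicase onto its DNA with the help of Cdc6 and Cdt1, then copies the DNA at forks held together by the sliding clamp Pcna. The genes of this step are switched on by E2F transcription factors at the end of G1. The cyclins, kinases and spindle proteins of mitosis are switched on later, in G2, by complexes that act through CCAAT boxes and the cell cycle genes homology region (CHR). In a healthy adult lung most structural cells rest, while lymphocytes and macrophages include cells that divide.

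CHR and E2F letters in the promoters of the members differed along this division. RefSeq windows from 250 bases before to 50 bases after a gene's start (GRCm38.p6) were matched for 33 of the 40 members, 17 of mitosis, 15 of S phase and Hmgb2. Mcm7 and Uhrf1 have a pair of windows each, and a gene was counted when any of its windows held the letters. The CHR letters TTTGAA or TTCGAA, searched on both strands, stood in 13 of 17 mitosis members (76.5%), in 2 of 15 S phase members (13.3%) and in 21.7% of all 27025 genes with a window. The letters bound by E2F were taken as TTCCCGC, the variant TTGGCGC, the variant TTCGCGC or the variant TTGCCGC on both strands. They stood in 10 of 15 S phase members (66.7%), in 3 of 17 mitosis members (17.6%) and in 10.9% of all genes. A CCAAT box stood in 15 of 17 mitosis members (88.2%), in 10 of 15 S phase members (66.7%) and in 41.1% of all genes. A CHR together with a CCAAT box was found in 76.5% of the mitosis members, in 13.3% of the S phase members and in 8.61% of all genes. A match describes the letters and is not a measured binding site.

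These are the 150 bases before the start of 3 mitosis members, shown because each holds both motifs, with CHR and CCAAT letters of either strand in capitals. Top2a lies at chr11:99024190-99024339 on the minus strand, Cdk1 at chr10:69352913-69353062 on the minus strand and Ube2c at chr2:164769779-164769928 on the plus strand. Each run reads 5′ to 3′ along the gene's strand.
Top2a: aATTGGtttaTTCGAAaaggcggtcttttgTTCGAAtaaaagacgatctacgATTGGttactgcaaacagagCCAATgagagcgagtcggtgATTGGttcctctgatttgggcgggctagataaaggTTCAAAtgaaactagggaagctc
Cdk1: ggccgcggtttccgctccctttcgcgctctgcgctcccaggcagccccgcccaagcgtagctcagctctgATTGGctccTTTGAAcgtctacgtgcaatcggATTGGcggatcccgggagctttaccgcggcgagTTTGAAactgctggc
Ube2c: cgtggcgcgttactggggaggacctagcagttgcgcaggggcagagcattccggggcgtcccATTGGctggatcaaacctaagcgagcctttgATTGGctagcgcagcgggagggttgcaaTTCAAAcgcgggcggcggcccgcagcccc

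The same stretch of 3 S phase members is shown with the E2F letters of either strand in capitals. Mcm6 lies at chr1:128359706-128359855 on the minus strand, Mcm5 at chr8:75109359-75109508 on the plus strand and Rrm1 at chr7:102441545-102441694 on the plus strand. In Mcm6 each capital run is TTGGCGC overlapping TTCGCGC of the opposite strand. None of these 3 windows holds a CHR match.
Mcm6: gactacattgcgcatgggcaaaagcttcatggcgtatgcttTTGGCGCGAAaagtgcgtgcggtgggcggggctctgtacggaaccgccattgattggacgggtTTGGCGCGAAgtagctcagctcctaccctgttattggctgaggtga
Mcm5: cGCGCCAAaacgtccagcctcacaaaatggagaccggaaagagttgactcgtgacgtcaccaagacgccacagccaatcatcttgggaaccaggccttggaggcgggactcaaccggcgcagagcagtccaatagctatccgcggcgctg
Rrm1: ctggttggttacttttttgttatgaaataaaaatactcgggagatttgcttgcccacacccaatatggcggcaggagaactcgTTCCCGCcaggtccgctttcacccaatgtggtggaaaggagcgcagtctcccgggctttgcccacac

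The mitosis members were found mostly in cells that also held other members, and the S phase members much less so. Over all libraries, 26.2% of cells held UMIs of at least 2 different members of 1 phase, and these cells held 43.0% of all UMIs. Of the 21 mitosis members, 18 had over 80% of their UMIs in cells with at least 2 other members of a phase, with a median of 90.7% over the 21. Birc5, the survivin subunit of the chromosomal passenger complex, had 96.5% there, the checkpoint kinase Bub1 96.3% and the kinetochore protein Cenpf 96.2%. The exceptions were Aurka at 68.6%, Bub1b at 65.9% and Cenpa, the centromeric histone, at 40.1%. Among the 17 S phase members the median was 63.5% and 4 were above 80%, with Pclaf, the PCNA-associated factor, at 98.1% and Tk1, Rrm2 and Uhrf1 at 90.5%, 89.5% and 85.4%. Pcna, which also serves DNA repair, was at 38.7%. For each gene the same cells, chosen by the other members alone, held between 30.6% and 43.0% of the UMIs of all genes, and the gene's own share was above that in 39 of 40 members. In Pcna it was above the 30.6% of its cells, and in Cenpa it was close to the 40.6% of its cells. Hmgb2, a chromatin protein, and Stmn1, which destabilises microtubules, were at 54.1% and 67.6%.

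**Figure D1:**
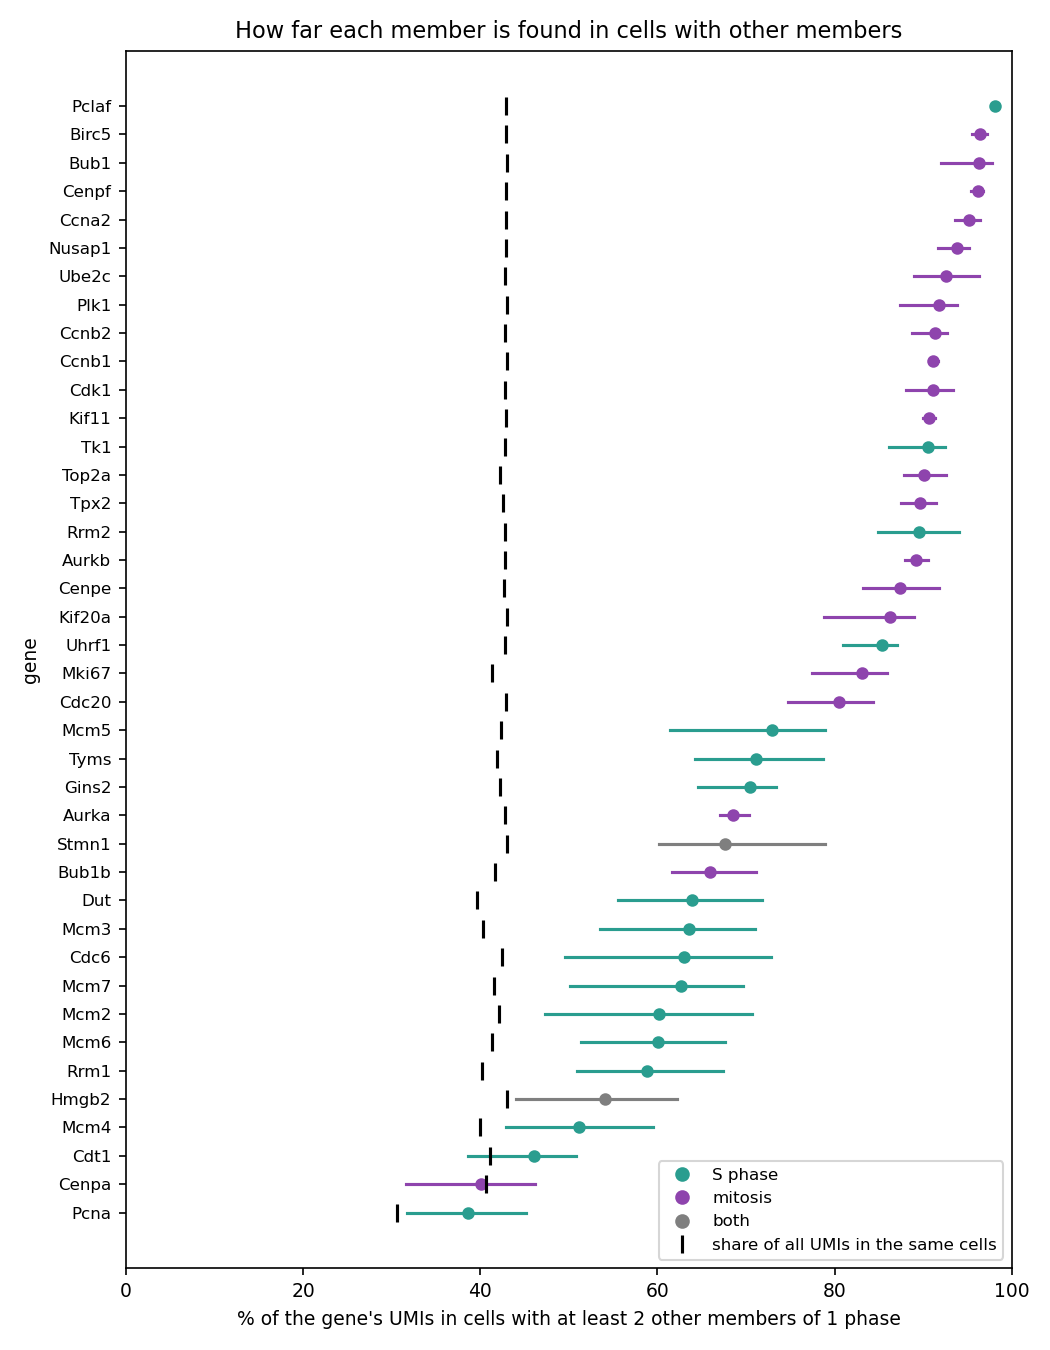
The share of each gene's UMIs (x axis, %) that lay in cells with at least 2 other members of 1 phase, for 40 genes (y axis). Points are all 4 libraries together, lines run from the lowest to the highest library, colours mark the phase and black ticks are the share of all genes' UMIs in the same cells, from 30.6% to 43.0%. Mitosis members fill the upper end, while Cenpa at 40.1% and Pcna at 38.7% lie at the lower end.

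Cells were placed in gates by lists of standard markers that hold none of the members, and 15 gates had at least 30 cells in every library. Each of the 15 had at least 2 of its own markers among its 10 leading genes by fold, which the gating on these markers itself favours. The ciliated gate also had 2 club cell markers among them, against 3 of its own. The neutrophil gate had 2 markers of neutrophil precursors, against 4 of its own. To compare cells of unequal depth, each was thinned to 1000 UMIs, which left 43963 cells, and a cell was counted for a phase when it held UMIs of at least 2 different members of that phase. Of the 2508 cells counted, 1541 held S phase members only, 401 held both and 566 mitosis members only. The fibroblast gate, where division is rare, had 4 cells with mitosis members of 3717 (0.11%), at median depths of 6244 and 5595 UMIs in GAL and 4455 and 5012 in WT before thinning. Without thinning the fibroblast share was 2.03% and 2.84% in GAL and 1.97% and 1.54% in WT.

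With cells pooled over all libraries, conventional dendritic cells had the highest shares of cells with mitosis members among the 15 gates, but not in every library. The gate of type 1 conventional dendritic cells (cDC1), which present antigen from dead cells to Cd8 T cells, had 13.1% such cells over all libraries, and that of type 2 conventional dendritic cells (cDC2) had 10.3%. By library, the cDC2 gate had 11.4% and 8.97% in GAL and 14.9% and 3.67% in WT. Alveolar macrophages had 4.18% over all libraries, with 5.30% and 3.31% in GAL and 4.48% and 3.70% in WT. The cDC1 gate of GAL replicate 1, at 4.07%, and the cDC2 gate of WT replicate 2 thus lay below the alveolar macrophages of the same library. T cells had 3.84%, and were above alveolar macrophages in GAL replicate 2 and WT replicate 1 and below them in the other libraries. NK cells had 2.39% and B cells 1.17%. Blood vessel endothelium and neutrophils had 0.19% each, close to the fibroblast level. By number, T cells made up 31.2% of all cells with mitosis members and alveolar macrophages 26.5%, while the cDC1 gate made up 7.76%.

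Within the T gate the share varied with the subset and with the library. T cells with Cd4 and without Cd8a or Cd8b1 UMIs had 6.68% with mitosis members, and those with Cd8a or Cd8b1 and without Cd4 had 2.70%. The subsets held 1900 and 1629 of the 7862 T cells that were thinned. They were set by UMIs before thinning, so placement depends on depth, and its part in these shares was not tested. By library the Cd4 subset had 4.71% and 6.29% in GAL and 11.1% and 2.66% in WT, and the Cd8 subset 2.52% and 2.997% in GAL and 2.46% and 2.74% in WT. The Cd4 subset was higher in 3 of 4 libraries, and in WT replicate 2 the subsets lay close together. T cells with Foxp3, the transcription factor of regulatory T cells, had 7.94%, with 6.52% and 4.76% in GAL and 11.3% and 5.26% in WT. These shares are of few cells, 46 and 105 in GAL and 151 and 38 in WT. The whole T gate had 3.10% and 4.11% in GAL, against 5.85% and 2.15% in WT, so the WT libraries lay on both sides of the GAL libraries. Before thinning these were 8.44% and 9.87% in GAL and 10.8% and 6.72% in WT, at median depths of 3377 and 2941 against 2132 and 2761 UMIs.

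The balance of the phases varied between gates. Of the cells counted for either phase, 27.9% held S phase members only in the cDC1 gate, 29.9% in cDC2 and 39.3% in alveolar macrophages, against 60.1% in T cells, 78.0% in NK cells and 79.4% in B cells. In endothelium and fibroblasts the share was 91.1% and 95.2%. The log2 ratio of S phase to mitosis UMIs of cDC2, minus that of the other gates of the same library, was −1.40 and −0.92 in GAL and −0.41 and −0.92 in WT, with a mean of −0.91 ± 0.41 (SD, n = 4). In cDC1 the mean difference was −0.64 ± 0.20, and in fibroblasts it was 2.49 ± 0.41 (SD, n = 4 each). All 4 libraries had the same sign in each of these 3 gates, and an exact two-sided sign-flip test over the libraries gave p = 0.125 for each, the smallest it can give. The same sign in all 4 libraries and the same p were found in further gates. Their means were −0.47 in alveolar macrophages, −0.81 in migratory dendritic cells and 0.22 in interstitial macrophages. Endothelium was at 2.21 and smooth muscle cells or pericytes at 1.97. T cells were at −0.17 ± 0.17 with 3 of 4 libraries below 0 (exact p = 0.25). In structural cells Pcna gave much of the S phase sum, between 40.6% and 46.4% of it in fibroblasts by library. That was not particular to them. Pcna gave between 64.4% and 68.0% in nonclassical monocytes, between 35.8% and 73.8% in classical monocytes and between 29.5% and 68.9% in neutrophils. In B cells Cenpa alone gave between 59.5% and 78.4% of the mitosis UMIs.

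**Figure D2:**
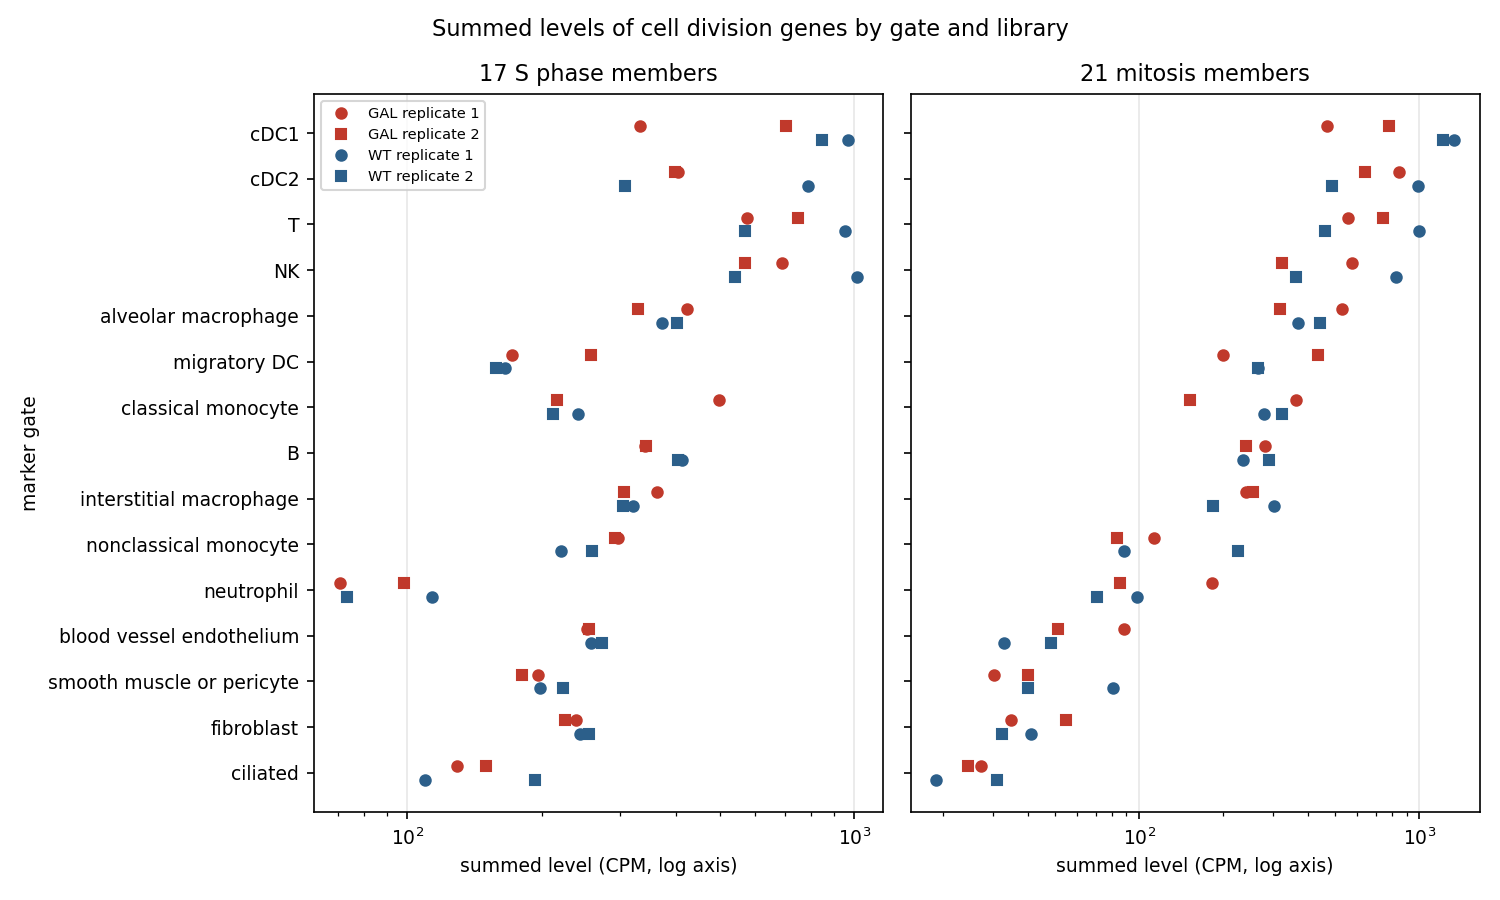
Summed level of the 17 S phase members (left) and the 21 mitosis members (right) in CPM of all UMIs of a gate (log axis), for 15 gates in order of their mitosis level. Points are libraries, with GAL above WT in each row. cDC1, cDC2, T and NK cells lie highest in both panels, and mitosis members span a wider range of levels than S phase members.

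Levels in CPM are a gene's UMIs scaled to a fixed total for all UMIs of the cells described. The summed level of mitosis members was 948 ± 398 CPM in cDC1, 739.5 ± 221 in cDC2, 689 ± 236 in T cells, 522 ± 232 in NK cells and 414.5 ± 91.4 in alveolar macrophages (mean ± SD, n = 4 libraries). It was 40.8 ± 10.1 CPM in fibroblasts and 25.5 ± 5.1 in ciliated cells. Neighbours at the top of this order, from cDC1 to NK cells, differed by less than 1 SD of either. S phase members were at 712 ± 276, 711 ± 181 and 704 ± 217 CPM in cDC1, T and NK cells and lowest in neutrophils, at 89.0 ± 20.7 CPM. In sums of this kind, more dividing cells and more RNA per dividing cell cannot be told apart.

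Each gate was tested against the mean of the other 14 with edgeR's quasi-likelihood test on summed counts, with the library as a term and Benjamini-Hochberg adjustment over 13061 genes. Of the 40 members, 38 passed the filter on low counts, and Plk1 and Kif20a did not. All 38 were higher in T cells and none lower, where 38.1% of all genes were higher and 22.4% lower, and 37 were higher in cDC1, where 25.6% of all genes were. Alveolar macrophages had 33 members higher and 2 lower (43.2% and 19.5% of all genes), cDC2 had 33 higher (23.6%), NK cells 26 higher (26.8%) and interstitial macrophages 14 higher (27.7%). The median log2 difference of the mitosis members was 3.28 in cDC1, 2.59 in cDC2, 2.33 in T cells and 1.94 in alveolar macrophages, against 1.88, 1.46, 1.91 and 0.74 for the S phase members. Medians of all genes were between −0.15 and 0.15 in these 4 gates.

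In ciliated cells, fibroblasts and endothelium most members called were lower. Ciliated cells had 25 members lower and none higher (30.5% of all genes lower), fibroblasts 21 lower and 2 higher (27.7% lower, 40.7% higher) and endothelium 20 lower and 1 higher (26.2% lower, 39.8% higher). Neutrophils had 10 lower and 2 higher, where 30.8% of all genes were lower and 26.9% higher, so the count of lower members was near that of all genes. B cells were split, with 9 higher and 10 lower (34.3% and 25.7% of all genes). The count of higher members was below the share of all genes and that of lower members near it, so neither count is a result about the members. Higher in B cells were the 6 MCM subunits, Cdt1, Dut and Cenpa. Lower were Cenpf, Pcna, Tpx2, Ccna2, Stmn1, Tyms, Mki67, Ccnb2, Cdc6 and Rrm2.

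**Figure D3:**
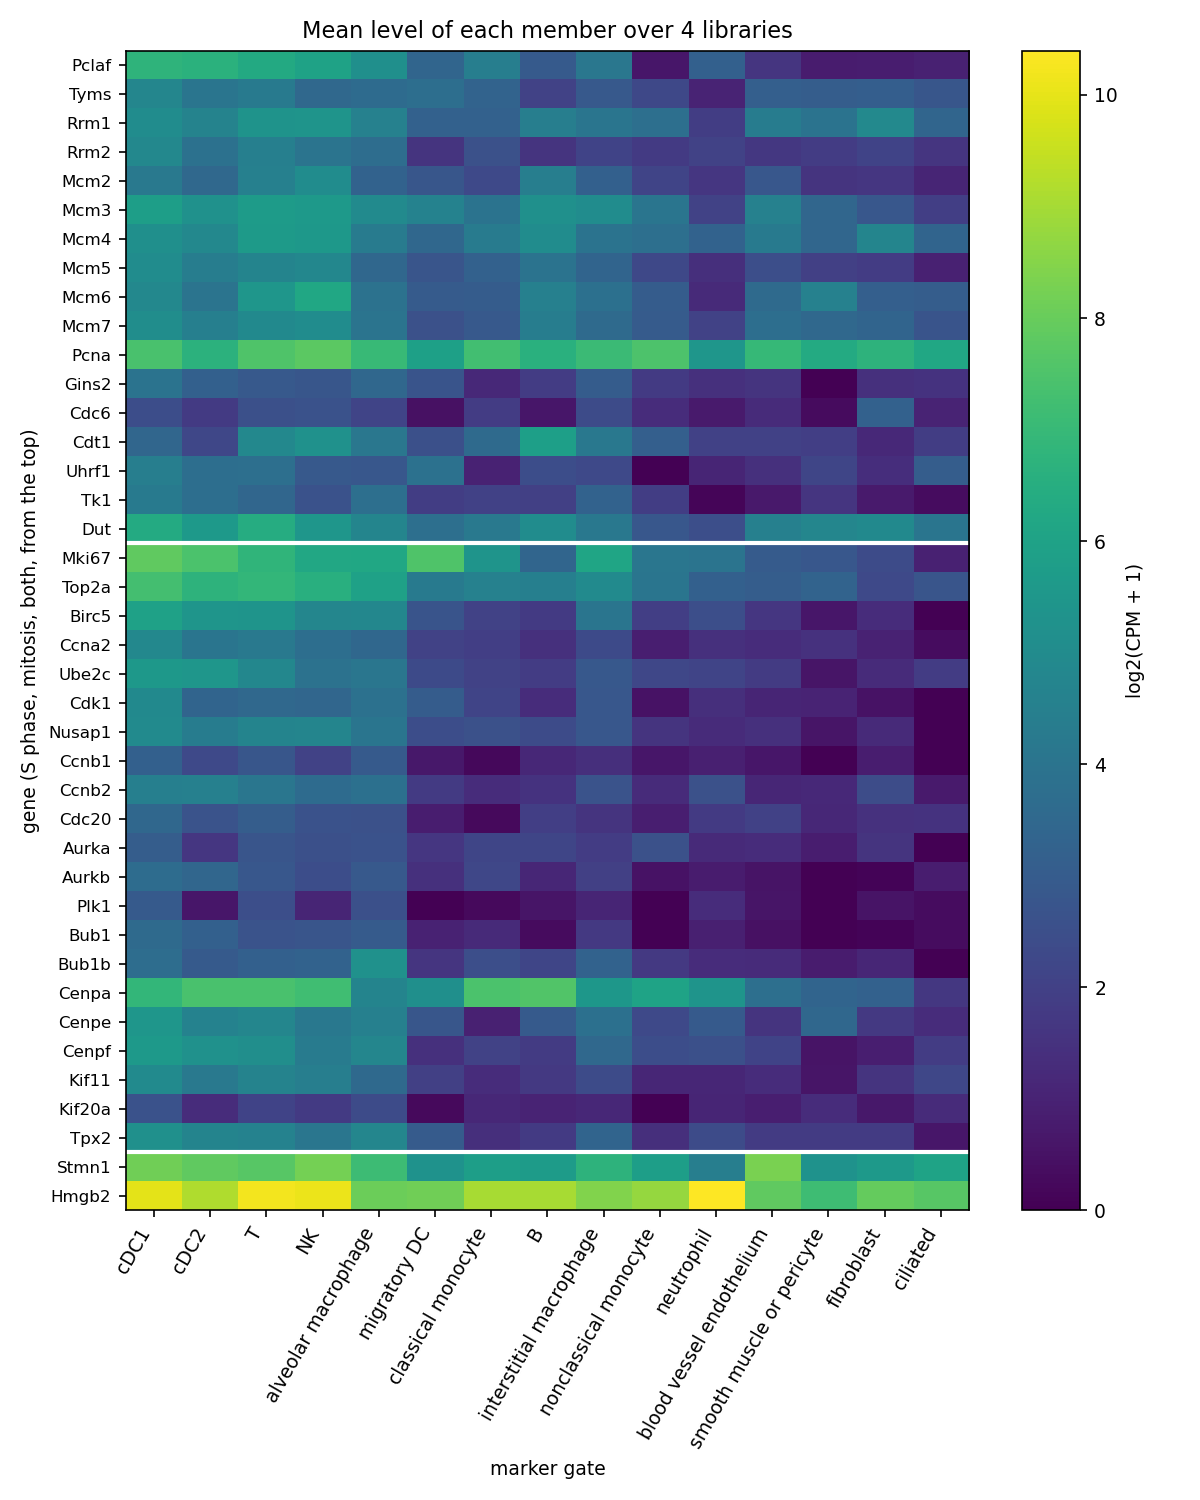
Mean level of each of the 40 members (rows) in each of 15 gates (columns), as log2(CPM + 1) over 4 libraries, with the S phase, mitosis and shared members as blocks from the top. Most mitosis members are brightest in the columns of cDC1, cDC2 and T cells, while Pcna, Hmgb2 and Stmn1 have high levels in further gates.

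Among the licensing and fork genes, Pclaf had 25.8 and 90.3 CPM in GAL and 193 and 116 CPM in WT in the cDC1 gate. In T cells it had 48.7 and 77.1 CPM in GAL and 139 and 51.8 CPM in WT. It was higher than in the other gates by 3.91 ± 0.33 in cDC1 (log2 ± SE, adjusted p = 1.7e-15) and by 3.35 ± 0.28 in T cells. Pcna, the clamp that Pclaf binds, was flatter, with 171 and 204 CPM in GAL and 185 and 173 in WT in T cells, a difference of 0.83 ± 0.09 from the other gates (edgeR adjusted p = 1.1e-11). In fibroblasts Pcna still had 96.9 and 105 CPM in GAL and 99.5 and 113 in WT. Mcm6, a subunit of the helicase whose promoter is shown above, was highest in NK cells, with 69.5 and 66.9 CPM in GAL and 88.5 and 59.99 in WT (2.38 ± 0.19 above the other gates). Mcm2 was also highest in NK cells (2.24 ± 0.25) and Mcm4 in T cells (1.49 ± 0.12), while Mcm3, Mcm5 and Mcm7 were highest in cDC1, at 1.88 ± 0.18, 2.47 ± 0.22 and 1.78 ± 0.19. Gins2, a subunit of the GINS complex of the fork, was 2.71 ± 0.26 above the other gates in cDC1 and 1.95 ± 0.17 in alveolar macrophages.

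Of the genes of nucleotide supply, Dut, which clears dUTP, had 56.0 and 91.0 CPM in GAL and 139 and 59.1 in WT in T cells, and was 2.08 ± 0.14 higher there than in the other gates. Rrm1 encodes the large subunit of ribonucleotide reductase and Rrm2 the small one that is made in S phase. Rrm1 was higher in T cells by 1.41 ± 0.13, and also in fibroblasts by 0.70 ± 0.15, with 35.6 and 20.2 CPM in GAL and 26.3 and 32.5 in WT. Cdc6, which loads the helicase, was the other member higher in fibroblasts, by 2.06 ± 0.30 (edgeR adjusted p = 1.5e-08). It had 9.8 and 6.3 CPM in GAL fibroblasts and 10.3 and 7.48 in WT fibroblasts, and it was picked out after its values were seen. Rrm2, Tk1, which makes dTMP from thymidine, and Tyms, which makes it from dUMP, were highest in cDC1, at 2.92 ± 0.29, 3.03 ± 0.34 and 2.08 ± 0.25, and so was Uhrf1, which keeps DNA methylation through replication, at 2.88 ± 0.28.

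Of the cyclins, Ccnb2 and Ccna2 moved with the dividing gates. Ccnb2, a cyclin of the mitotic kinase Cdk1, had 5.33 and 15.7 CPM in GAL and 33.2 and 30.6 in WT in the cDC1 gate and was 2.76 ± 0.36 above the other gates. Ccna2, the cyclin of S phase and G2, was 3.34 ± 0.26 above them in cDC1 and 2.57 ± 0.20 in T cells, and lower in B cells (−1.02 ± 0.43, edgeR adjusted p = 0.038). Ube2c, which hands ubiquitin to the anaphase-promoting complex, was 3.43 ± 0.32 higher in cDC1, 3.33 ± 0.36 in cDC2 and 2.48 ± 0.26 in T cells. Birc5 was 3.89 ± 0.29 higher in cDC1 (edgeR adjusted p = 2.33e-17) and Top2a, the topoisomerase that untangles sister DNA, 3.07 ± 0.23.

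The remaining mitosis members were placed alike. Cdk1, whose promoter is shown above, was 3.89 ± 0.34 above the other gates in cDC1, and its cyclin Ccnb1 3.32 ± 0.46. The Aurora kinases differed in size, with Aurkb, of the chromosomal passenger complex, at 3.43 ± 0.35 in cDC1 and Aurka, of the spindle poles, at 2.02 ± 0.48, but the difference between them was not tested. Cdc20, which activates the anaphase-promoting complex, was at 2.36 ± 0.38 there. The kinetochore proteins Cenpe and Cenpf were at 3.06 ± 0.29 and 3.34 ± 0.37, the spindle motor Kif11 at 3.27 ± 0.33 and the microtubule-binding proteins Tpx2 and Nusap1 at 3.02 ± 0.27 and 3.28 ± 0.34. The polo-like kinase Plk1 and the kinesin Kif20a, left out by the filter, had 508 and 466 UMIs over the 4 libraries. Of these 54.1% and 51.9% lay in alveolar macrophages, a gate that held 29.3% of the UMIs of all genes. The cDC1 gate held 6.50% and 6.01% of them, against 2.68% of the UMIs of all genes. Ccnb1, Tpx2 and Cdk1 likewise had 54.1%, 52.1% and 51.6% of their UMIs in alveolar macrophages.

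A few members had UMIs in many cells in which no other mitosis member was detected. Their levels were taken in such cells, which were not selected on S phase members, next to cells with at least 2 other mitosis members. Bub1b, Mki67 in dendritic cells and Cdt1 in B cells were picked out for this after their values were seen, and Cenpa, Hmgb2 and Stmn1 by their UMIs.

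Bub1b encodes BubR1, which holds back the anaphase-promoting complex until all chromosomes are attached. Of its 2858 UMIs, 76.1% lay in the alveolar macrophage gate, which held 29.3% of all UMIs. Alveolar macrophages without another mitosis member had 25.0 and 35.8 CPM of Bub1b in GAL and 28.5 and 29.8 CPM in WT. T cells without another mitosis member had 1.8 and 1.8 CPM in GAL and 2.4 and 0.8 in WT. A Bub1b UMI was found in 17.8% and 25.5% of those GAL macrophages and in 20.3% and 19.3% of the WT ones, at median depths between 8658 and 10101 UMIs, against 0.59% and 0.53% of the GAL and 0.51% and 0.22% of the WT T cells. Its partner Bub1 averaged 0.2 CPM in macrophages without another mitosis member and 27.1 CPM in those with at least 2. Against the other gates Bub1b was 3.99 ± 0.18 higher in alveolar macrophages (log2 ± SE, edgeR adjusted p = 3.96e-27). No exon of another gene overlaps Bub1b in the GENCODE vM21 annotation. Exons of 11 of the 40 members do overlap another gene there, and with the strand setting of the counting not given, reads of Gins2 and Gse1, Kif20a and Cdc23, Ccna2 and Exosc9, Ube2c and Tnnc2, Tk1 and Afmid, and Mcm7 and its neighbours cannot be told apart where they overlap.

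Mki67 encodes Ki-67, the coat of mitotic chromosomes used as a marker of proliferation. In migratory dendritic cells without another mitosis member it had 143 and 193 CPM in GAL and 184 and 241 CPM in WT. The share of those cells with an Mki67 UMI was 34.8% and 55.2% in GAL and 43.2% and 50% in WT, of between 20 and 139 cells per library, against 1.498% and 2.43% of fibroblasts in GAL and 1.48% and 0.89% in WT. Median depths of these cells were between 5813 and 8976 UMIs in migratory dendritic cells and between 4219 and 6113 in fibroblasts. The mean was 99.6 CPM in such cells of the cDC1 gate and 98.2 in cDC2, against 9.97 CPM in T cells and 14.8 in alveolar macrophages. T cells with at least 2 other mitosis members had 621 CPM. Over all cells of the gate, Mki67 was 3.22 ± 0.28 higher in migratory dendritic cells than elsewhere (edgeR adjusted p = 3.49e-15), where 4 members were higher and 2 lower (20% and 16% of all genes). The other members higher there were Gins2, Cdk1 and Uhrf1.

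Cdt1 and Cenpa had such levels in lymphocytes. In B cells Cdt1, the licensing factor that is destroyed in S phase, averaged 56.4 CPM without another mitosis member and 49.99 CPM with at least 2. Over the whole B gate it had 57.8 and 57.2 CPM in GAL and 53.2 and 61.0 in WT, 3.07 ± 0.13 above the other gates (edgeR adjusted p = 2.18e-28). Cenpa averaged 186 CPM in B cells without another mitosis member and 192 with at least 2, against 13.4 and 69.5 CPM in alveolar macrophages. Over whole gates Cenpa was 2.15 ± 0.14 higher in B cells and 2.22 ± 0.16 higher in classical monocytes, and lower in alveolar macrophages (−0.83 ± 0.19, edgeR adjusted p = 0.000171).

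Hmgb2 and Stmn1 were high in a gate with few mitosis cells each. Neutrophils, which do not divide once mature, had 1109 and 1392 CPM of Hmgb2 in GAL and 1293 and 1459 in WT in cells without another mitosis member, and the gate was 2.38 ± 0.11 above the others (edgeR adjusted p = 1.93e-27). The neutrophil gate also had the precursor genes Ngp and Camp among its leading genes. Stmn1 in endothelial cells without another mitosis member had 276 and 345 CPM in GAL and 286 and 369 in WT, against 42.1 and 47.5 CPM in GAL fibroblasts and 42.6 and 52.3 in WT fibroblasts. Endothelium was 1.499 ± 0.19 above the other gates (edgeR adjusted p = 3.28e-10). T cells averaged 58.3 CPM of Stmn1 without another mitosis member and 908 CPM with at least 2.

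**Figure D4:**
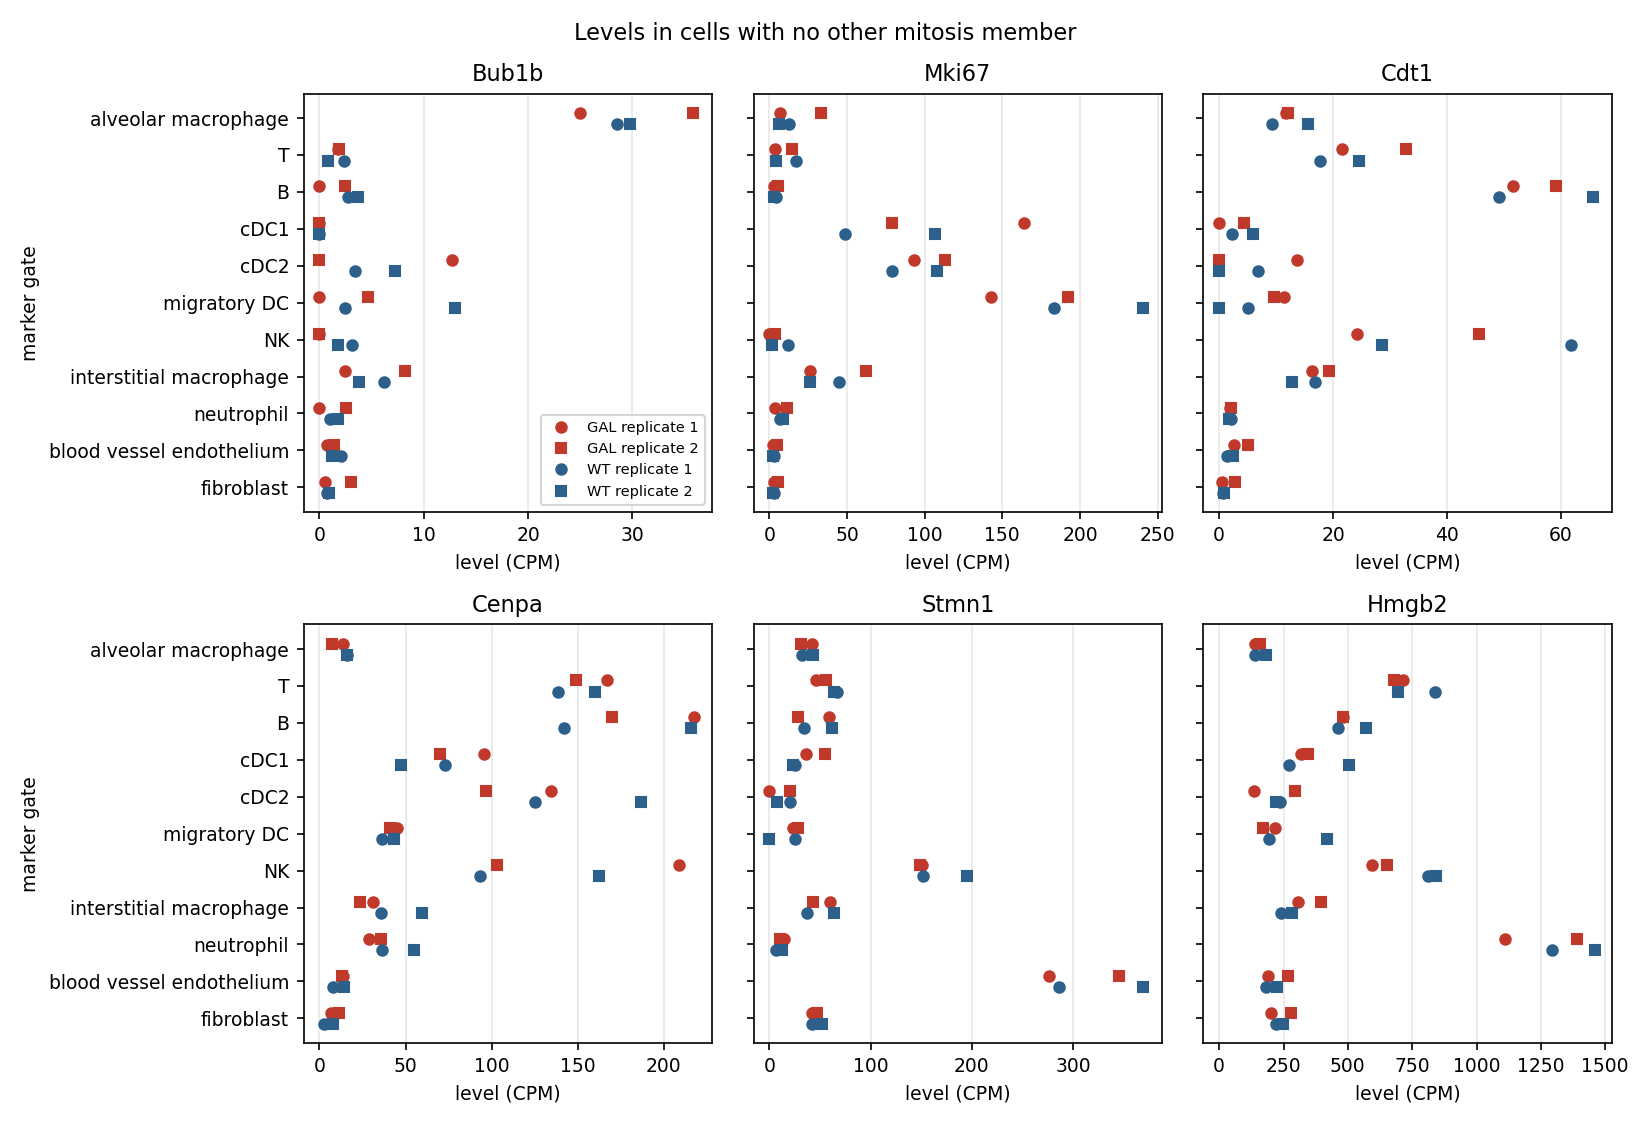
Level (CPM, x axis) of 6 members in cells where no other mitosis member was detected, for 11 gates (y axis). Points are libraries, with GAL above WT in each row. Bub1b stands out in alveolar macrophages at 25.0 to 35.8 CPM, Mki67 in the dendritic gates, Stmn1 in endothelium and Hmgb2 in neutrophils.

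In the whole lung no member differed between GAL and WT beyond the spread of the libraries. With edgeR's quasi-likelihood test none of the 40 had an adjusted p under 0.05 (0% of 16831 genes had) and none an unadjusted p under 0.05, where 1045 of all genes had. DESeq2 likewise called none of the members, and 38 of 19477 genes (0.195%). By fitted value 39 of 40 members lay lower in GAL, with a median log2 fold change of −0.27 against 0.01 for all genes. The 2 GAL libraries stood apart from the 2 WT libraries in 10 of 40 members, against 39.1% of all genes. Members tend to lie in the same cells, so these counts are not of independent genes.

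The direction rests largely on WT replicate 1. Without that library 17 of 40 members lay lower in GAL, and without GAL replicate 1 there were 31. Pclaf, with the largest fitted change, had 18.6 and 28.7 CPM (TMM-scaled) in GAL and 55.2 and 22.3 in WT, a log2 fold change of −0.71 ± 0.48 (SE, edgeR adjusted p = 0.725). WT replicate 1 alone was high, and the other WT library lay between the GAL libraries. Bub1 had 3.07 and 3.09 CPM in GAL and 5.58 and 3.36 in WT (−0.54 ± 0.33). Top2a had 33.1 and 50.3 CPM in GAL and 78.8 and 38.9 in WT (edgeR adjusted p = 0.753). Ccnb1, a cyclin of Cdk1, and Birc5 both had a log2 fold change of −0.48. Pcna had 119 and 127 CPM in GAL and 129 and 135 in WT, a change of −0.10 ± 0.15. Without WT replicate 1 Pclaf was at 0.068 and Birc5 at 0.036.

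Sums and shares of cells were compared as well. The S phase members summed to 338.5 and 373 CPM in GAL and 445.1 and 379.9 in WT (exact two-sided permutation p = 0.333, the smallest that 2 against 2 libraries can give). The mitosis members summed to 277 and 326 CPM in GAL and 425 and 320 in WT (exact p = 0.667). Every library was also given the same mix of gates, each gate and the ungated cells weighted by the mean share of UMIs over the 4 libraries. Mitosis was then at 353 and 307 CPM in GAL and 392.5 and 317 in WT. Thinned cells with mitosis members made up 1.82% and 2.24% in GAL and 3.25% and 1.51% in WT, and those with S phase members 3.71% and 4.43% in GAL and 5.30% and 4.18% in WT (exact p = 1 and 0.667). Before thinning the S phase shares were 26.3% and 24.1% in GAL and 21.4% and 20.1% in WT. The log2 ratio of S phase to mitosis UMIs was 0.29 and 0.19 in GAL and 0.07 and 0.25 in WT (exact p = 0.667). Cells with at least 2 mitosis members were removed as doublets more often than cells in general, at 14.5% and 13.4% in GAL, where 9.72% and 9.51% of all cells were, and at 19.4% and 22.6% in WT, where 11.2% and 12.3% were.

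Other cell cycle genes, outside the 40, were likewise not called. Of 26 further mitosis genes 25 lay lower in GAL by fitted value, with a median of −0.32, of 16 further replication genes 14 did, with a median of −0.15, and of 20 genes of G1 control 14 did, with a median of −0.07. The G1 cyclin Ccne1 had 5.50 and 4.99 CPM in GAL and 3.93 and 3.30 in WT (0.54 ± 0.24), and the retinoblastoma-like gene Rbl1 8.50 and 11.2 in GAL and 15.5 and 12.4 in WT (−0.50 ± 0.24). Prim1, a primase subunit, was at −0.45 ± 0.21, and Hmmr, a spindle protein, at −0.52 ± 0.30. None of the 62 genes had an unadjusted p under 0.05 in the edgeR fit.

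Within gates, no member was called in any of the 15, by edgeR or by DESeq2. Genes of any kind were called by edgeR in the classical monocytes (14 genes, 0.201%) and the nonclassical monocytes (17 genes, 0.294%), and none in the other 13. In T cells 29 of 40 tested members lay lower in GAL, with a median of −0.16, and in alveolar macrophages 14 of 40 did, with a median of 0.03. Bub1b in alveolar macrophages had 35.3 and 46.2 CPM in GAL and 33.7 and 34.7 in WT (0.25 ± 0.16), and Cdt1 in B cells 57.5 and 59.7 in GAL and 54.8 and 58.1 in WT (0.05 ± 0.18). Outside the cDC1 gate 12 of 269 tests of a member had an unadjusted p under 0.05 (4.46%), near the 4.17% of the tests of all genes in these 14 gates, so the count is not a result about the members. Among them Pclaf in B cells had 0.371 and 2.21 CPM in GAL and 17.96 and 6.52 in WT, and Ube2c in endothelium had 6.52 and 2.35 CPM in GAL and 0.304 and 0.821 in WT (edgeR adjusted p = 0.242). All S phase members together had 913 UMIs, or 340 CPM, in B cells of GAL replicate 1. All mitosis members had 109 UMIs, or 32.8 CPM, in endothelium of WT replicate 1. Values of 0.371 and 0.304 CPM there thus rest on very few UMIs. Mki67 in neutrophils had 23.3 and 21.5 CPM in GAL and 9.94 and 7.73 in WT. Mki67 was also at 14.5 and 5.99 CPM in GAL endothelium and 3.34 and 4.52 in WT endothelium. In the endothelial gate the sums of 10 of the 27 marker lists did not overlap between GAL and WT, 8 of them higher in GAL. That count is near the share of single genes without overlap in this gate, given below, and is not a result about the gate. In the T and B gates 6 and 7 of the 27 lists did not overlap. The fibroblast list summed to 1168 and 1451 CPM in GAL and 663 and 600 in WT, the lymphatic endothelium list to 1156 and 947 in GAL and 529 and 51.3 in WT, and the list of smooth muscle cells or pericytes to 299.8 and 511 in GAL and 232 and 205 in WT. The endothelial list itself was lower in GAL, at 8099 and 8515 CPM, against 8680 and 9818 in WT. GAL replicate 1 stood apart in this gate in 2 lists that overlap between the groups. The alveolar type 2 list was at 2246 and 30.8 CPM in GAL and 183 and 90.2 in WT. The neutrophil precursor list was at 70.0 and 3.52 CPM in GAL and 4.82 and 1.85 in WT. These lists were picked after their values were seen, and their part in the members' values was not tested.

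The cDC1 gate had the widest distance between GAL and WT. It held 124 and 174 cells in GAL and 193 and 85 in WT. Mitosis members summed to 467 and 782 CPM in GAL and 1328 and 1215 in WT, and S phase members to 332 and 702 in GAL and 969 and 847 in WT, so the groups did not overlap. Cells with mitosis members, after thinning, made up 4.07% and 13.2% in GAL and 17.1% and 16.7% in WT, with exact 95% binomial intervals of 1.33% to 9.23% and 8.57% to 19.2% in GAL and of 12.1% to 23.2% and 9.42% to 26.4% in WT, which cover counting error only. Before thinning the shares were 27.4% and 42.0% in GAL and 42.0% and 44.7% in WT, at median depths of 9078 and 10388 UMIs against 8520 and 8303.

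By fitted value 38 of 39 tested members lay lower in the GAL cDC1 gate, with a median log2 fold change of −0.97 against 0.02 for all genes. The libraries of GAL and WT did not overlap in 32 of the 39, where 36.4% of all genes did not. None was called by edgeR after adjustment (smallest adjusted p = 0.696), while 25 of 39 members and 498 of 7653 genes had an unadjusted p under 0.05. DESeq2 also called none, with 14 members at an unadjusted p under 0.05. Members tend to lie in the same cells, and the gate was picked out for its distance after the values were seen. These counts are therefore not of independent genes, and the shares of all genes beside them do not test them. Ube2c had 24.4 and 26.6 CPM (TMM-scaled) in GAL and 81.7 and 53.3 in WT (−1.44 ± 0.28). Birc5 had 19.7 and 44.6 CPM in GAL and 93.6 and 82.5 in WT (−1.40 ± 0.33). Hmgb2 had 549 and 853 CPM in GAL and 1378 and 1197 in WT. Mki67 was nearer, with 179 and 194 CPM in GAL and 256 and 290 in WT (−0.54). Pcna overlapped, with 136 and 179 CPM in GAL and 169 and 204 in WT (−0.23 ± 0.23).

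The count of called members in this gate depends on single libraries. With 1 library left out, its group has 1 library, which is assumed to vary like the 2 of the other group. Without GAL replicate 1, the lower of the GAL libraries, the median was −0.61 and no member was called, where 0.242% of all genes were. Without GAL replicate 2 the median was −2.02 and 13 members were called, where 0.613% of all genes were, and without WT replicate 2 there were 6, where 0.586% were. Without WT replicate 1 no member was called, where 0.0779% of all genes were. Without the filter on low counts 11 were called, where 0.489% of all genes were. With no doublets removed, an alternative chosen after seeing the data, mitosis members summed to 504 and 775 CPM in GAL and 1299 and 1119 in WT and none was called. In this gate the sums of 10 of the 27 marker lists did not overlap between GAL and WT, 4 of them higher and 6 lower in GAL. That count is near the 36.4% of single genes without overlap in the gate, and is not a result about the gate. The lists given next were picked with their values known. The fibroblast list summed to 144 and 78 CPM in GAL and 45 and 64 in WT, the alveolar macrophage list to 248 and 204 in GAL and 483 and 260 in WT and the erythroid list to 20 and 16 in GAL and 31 and 194 in WT, while the cDC1 list itself was at 1754 and 1720 in GAL and 1955 and 1911 in WT. The cDC2 list overlapped between the groups, at 2534 and 1358 in GAL and 2865 and 1840 in WT. It was above the cDC1 list in GAL replicate 1 and WT replicate 1. Plasma cell markers, at 27.5 and 37.0 CPM in GAL and 12.6 and 9.32 in WT, and blood vessel endothelium markers, at 90.6 and 56.6 in GAL and 34.9 and 51.9 in WT, were higher in GAL. GAL replicate 1, where the members were lowest, stood apart from the other libraries in epithelial lists that overlap between the groups. The alveolar type 2 list was at 315 and 15.7 CPM in GAL and 57.8 and 74.5 in WT, the club list at 359.9 and 79.1 in GAL and 92.7 and 65.2 in WT and the alveolar type 1 list at 66.7 and 11.2 in GAL and 16.0 and 22.6 in WT. Their part in the result was not tested.

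**Figure D5:**
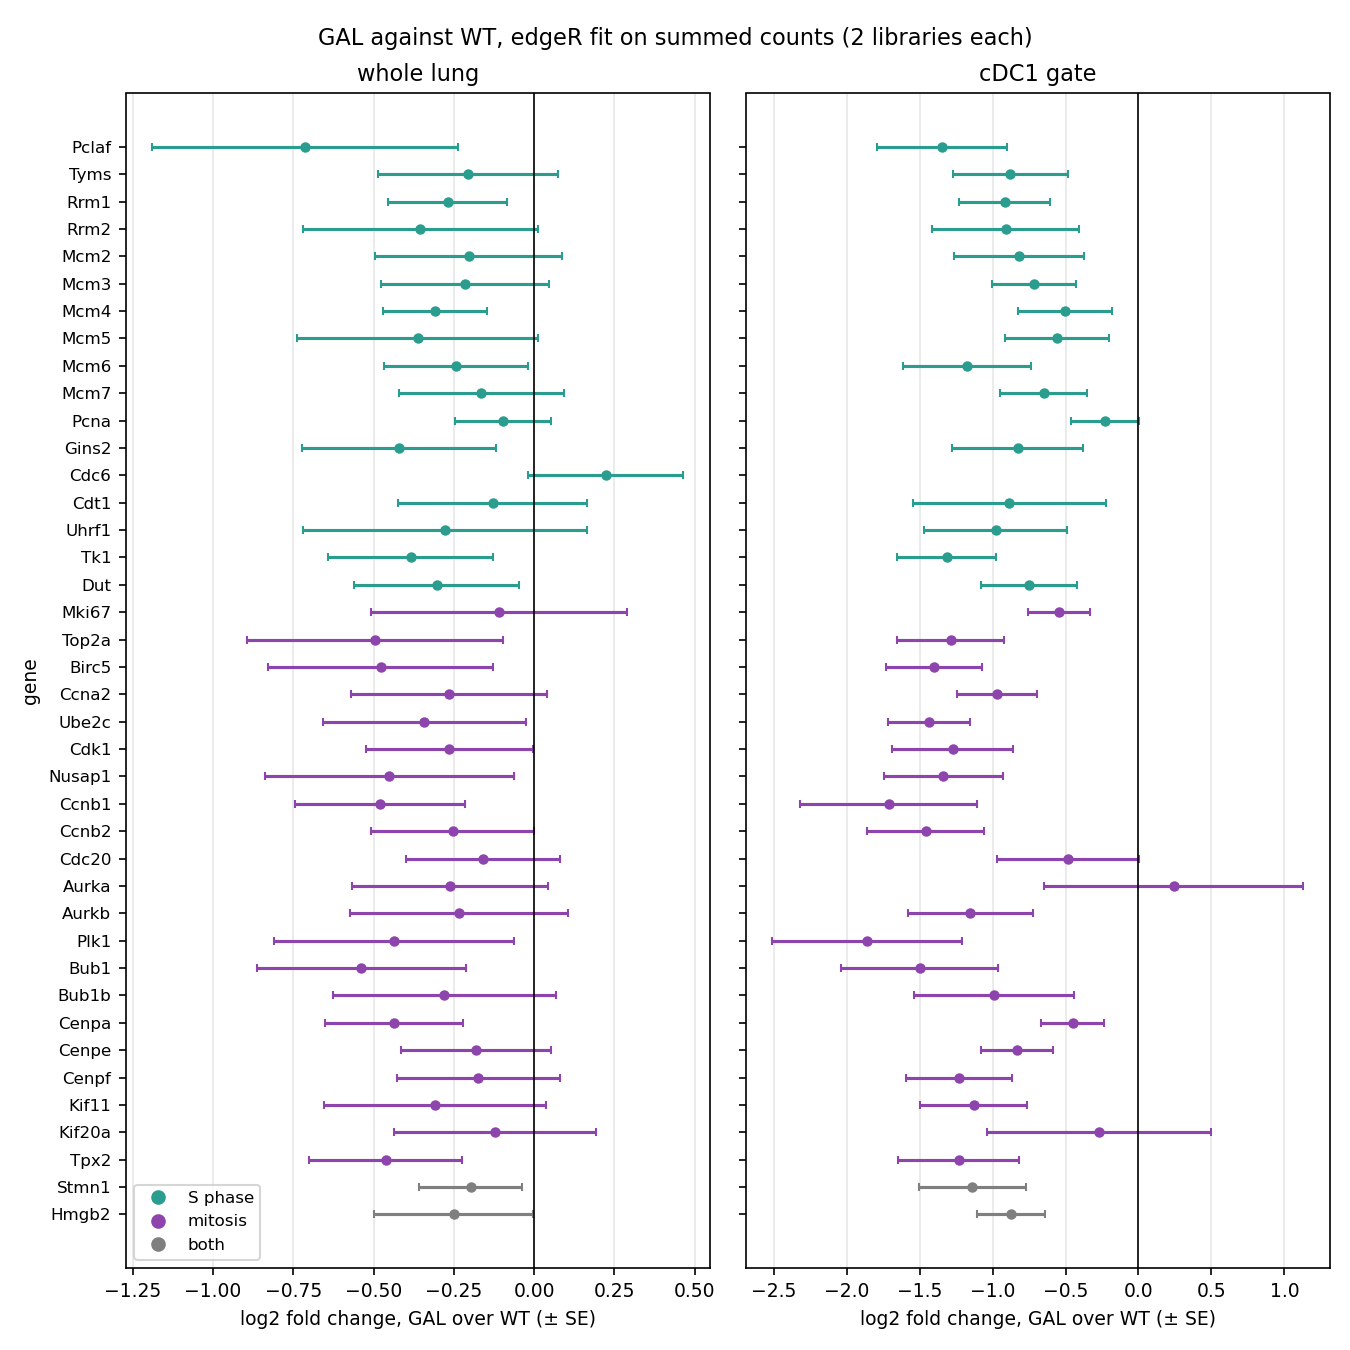
Log2 fold change of GAL over WT (x axis, ± SE from edgeR, 2 libraries each) of the members (y axis) in the whole lung (left, 40 genes) and in the cDC1 gate (right, 39 genes, Cdc6 not tested). In the whole lung 39 of 40 points lie left of 0 with a median of −0.27, and in the cDC1 gate 38 of 39 do with a median of −0.97, with no member called in either.

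Other cell cycle genes of the cDC1 gate were placed alike. Of further mitosis genes 21 of 21 tested lay lower in GAL by fitted value, with a median of −0.96, and of further replication genes 12 of 13 did, with a median of −0.69. Genes of G1 control were at a median of −0.15, with 11 of 18 lower. Prim1 had 4.69 and 6.21 CPM in GAL and 22.1 and 18.6 in WT (−1.87 ± 0.40), and the kinetochore gene Knl1 13.1 and 19.8 in GAL and 39.2 and 46.6 in WT (−1.31 ± 0.30). None was called by edgeR, while 11 of these mitosis genes and 5 of these replication genes had an unadjusted p under 0.05.

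Outside the 40, the genes whose level over 60 gate-by-library sums was most like that of the S phase sum were Cep55 (Pearson r = 0.88), Hist1h1b (0.88), Asf1b, Clspn and Hist1h2ap (0.86 each), of 13023 genes. Most like the mitosis sum were Hist1h2ae (0.91), Hist1h1b (0.91), Polr1d (0.90), Rbm3 (0.89) and AI662270 (0.87). The 60 points share 4 libraries, and the values are a description.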

How the data were processed

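Single cells of 2 GAL and 2 WT mouse lung libraries were analysed from the matrices of UMI counts that the authors deposited as whole numbers per gene and barcode. Tools named in the submitters' processing notes are fastp, STAR and Seurat, with the mouse genome as GRCm38 and mm10; the annotation and the strand setting used for counting are not given in the sources used here. Libraries held 56218178 to 62406681 UMIs in 12045 to 15583 barcodes, none below 500 UMIs.

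Cells with at least 500 UMIs, 300 genes and at most 20% mitochondrial UMIs were kept, and the highest Scrublet scores were removed at 0.8% per 1000 cells, since the automatic threshold removed 0% to 5.29%. A cell was gated to the list, of 27 marker lists, with the most markers detected, with at least 3 and more than any other list. That minimum was set after gate sizes were seen. No member is a marker. Members and lists were chosen with earlier results of these data known.

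Counts summed per library, over all cells or per gate, were tested with edgeR 4.0.16 (quasi-likelihood, filterByExpr, TMM, R 4.3.3), and DESeq2 1.42.0 was an alternative. Adjusted p-values are Benjamini-Hochberg over all genes of a comparison, and a gene was called under 0.05. The edgeR step was run on simulated whole-lung sums with a common dispersion for all genes. That run does not cover spread that differs by gene or the sparser sums of gates. Levels in CPM are UMIs of a gene scaled to a fixed total of the cells described, and TMM-scaled in comparisons of GAL with WT of single genes. Log2 errors are SE. Depth sets the counting error, and intervals and shares at 0 cover counting error only, with no replicate error.

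Named members are the 2 with the most UMIs in each of 6 role groups and the 5 with the largest absolute change in the whole lung; values of further members, and the gates they are given for, were chosen after the values were seen. Other named genes are those with the smallest p of each list and the 5 most correlated with each sum. Promoter letters were read from RefSeq windows.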

Additional observations from a re-analysis of the deposited data

Results flagged for a closer look

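In some gates the summed levels of members did not overlap between the libraries of GAL and WT, for S phase in 7 of 15 gates and for mitosis in 3 of 15. Single genes did not overlap either in 26.9% of all genes in B cells, 28.8% in migratory dendritic cells, 34.0% in endothelium, 34.7% in fibroblasts and in smooth muscle cells or pericytes, 36.4% in the cDC1 gate and 40.1% in nonclassical monocytes. Counts of gates near these shares are not a result about the members. In each gate below the lower of one group's 2 libraries lay above the higher of the other's, and the value given is the log2 ratio of the GAL mean over the WT mean. The difference between gates was not tested.

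S phase members lay higher in GAL in nonclassical monocytes (0.29) and in migratory dendritic cells (0.41). In the migratory dendritic cells GAL had 172 and 257 CPM and WT 165 and 158 CPM, and without GAL replicate 2 the ratio was 0.090. In the nonclassical monocytes it was 0.18 without WT replicate 1. They lay lower in GAL in B cells (−0.26), in the cDC1 gate (−0.81, and from −1.45 to −0.37 with a library left out), in blood vessel endothelium (−0.065), in fibroblasts (−0.10) and in smooth muscle cells or pericytes (−0.16). Without WT replicate 2 these were −0.025 in endothelium and −0.073 in smooth muscle cells or pericytes, and without GAL replicate 2 −0.062 in fibroblasts.

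Mitosis members lay higher in GAL in blood vessel endothelium (0.78), with 87.9 and 51.4 CPM in GAL and 32.8 and 48.6 CPM in WT. GAL replicate 2 and WT replicate 2 were close there, and the ratio was 0.34 without GAL replicate 1 and 0.52 without WT replicate 1. They lay lower in the cDC1 gate (−1.03, and from −1.44 to −0.70 with a library left out) and in smooth muscle cells or pericytes (−0.77), where GAL had 30.4 and 40.2 CPM and WT 80.4 and 40.2 CPM. Levels in smooth muscle cells or pericytes rest on only 34 and 18 mitosis UMIs in GAL and 15 and 20 in WT. In that last gate GAL replicate 2 and WT replicate 2 were nearly equal, and the ratio was −0.19 without WT replicate 1.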

How the results depend on the processing

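No paired analysis was possible because the labels hold only library codes, and the replicate numbers used here name libraries in accession order. In the whole lung no member was called under any alternative run: DESeq2, RLE size factors, no filter on low counts, no doublets removed, a mitochondrial limit of 10%, or leaving out any library. Without GAL replicate 2 edgeR called 389 of 17536 genes (2.22%) and no member. With a library left out, fitted whole-lung changes of some members changed sign. Bub1b ran from −0.77 to 0.071, Hmgb2 from −0.58 to 0.0016 and Mki67 from −0.53 to 0.18 and 0.45, with their positive values without GAL replicate 1 (Mki67 at 0.45 without WT replicate 1). Positive without WT replicate 1 were also Ccna2 (−0.59 to 0.13), Ccnb2 (−0.52 to 0.035), Dut (−0.59 to 0.016), Pclaf (−1.23 to 0.068), Ube2c (−0.71 to 0.13), Top2a (−0.93 to 0.088) and Birc5 (−0.87 to 0.036). Calls of members within gates, 0 as reported, were 18 of 584 tests with no filter on low counts (3.08%, against 0.521% of the tests of all genes) and 3 to 18 with a library left out. The 3, without GAL replicate 1, were 0.845% of the tests of members, against 0.850% of those of all genes. Shares were 5.39% against 0.677% without GAL replicate 2, 1.82% against 0.419% without WT replicate 1 and 1.97% against 0.302% without WT replicate 2. In the cDC1 gate alone they were 11 with no filter and 0 to 13 with a library left out, alternatives added after the data were seen. Without the filter more genes with few counts are tested; the cause was not tested further. Across gates 206 calls of members higher (and 115 lower) were made as reported, and those of higher were 195 with RLE size factors, 201 with the stricter gate and 182 to 203 with a library left out. The difference in the share of cells, GAL minus WT, was −0.67 percentage points for S phase and −0.35 for mitosis, and −1.73 and −1.24 when cells were thinned to 2000 UMIs. With a library left out the S phase difference ran from −1.23 to −0.11 and the mitosis difference from −1.21 to 0.52. The S phase to mitosis ratio kept its sign in the cDC1, cDC2 and fibroblast gates in each alternative run.

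With 2 libraries per group, low counts of most members limit what a gate can show. Exact permutation of 2 against 2 libraries cannot go below 0.333.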
